A study of Mus musculus with 2 samples.

Results

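The genes described here encode the machinery that carries a signal from the T cell receptor into the cell, in mouse CD4 T cells grown under 2 culture conditions. They are 41 genes chosen by name, from the CD3 chains to the NFAT transcription factors. Of these, 40 had at least 1 probe set that the platform annotation assigns to that gene alone, among 18193 genes named in this way. The kinase gene Lck had no such probe set and was not analysed here. All 40 were measured, which means that the signal lay above a floor on at least 1 array, and each of them lay above it on both. The floor was 78.5, the median of all signals, and was taken as the level below which background dominates.

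The labels' protocols state that wild type C57BL/6 mice gave the cells, which were sorted magnetically from spleen, and both cultures were stimulated for 2 days with antibodies to CD28 and, fixed to the plate, to the receptor. They were harvested 3 days later, after 5 days in all. The CD103+ Th1 medium held 3 ng/ml of IL-4, 10 ng/ml of IFN-γ and 3 ng/ml of TGF-β. The Th1 medium held 1 ng/ml of IL-12 with 1 µg/ml of an antibody that binds IL-4. The labels give neither the number nor the age of the mice. Each condition had 1 Affymetrix array, so no value below has a replicate error and no test was made. A resting culture was not analysed here. In a bulk culture, fewer cells that express a gene and less RNA per cell cannot be told apart.

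When the T cell receptor binds its ligand, the kinase LCK phosphorylates tyrosine motifs in the CD3 and zeta chains, and the kinase ZAP-70 docks there. ZAP-70 phosphorylates the adaptors LAT and SLP-76, which gather phospholipase C-γ1, VAV1 and other enzymes. Phospholipase C-γ1 then makes diacylglycerol, which drives the RAS and NF-κB branches through RASGRP1 and protein kinase C-θ, and inositol trisphosphate, which raises calcium and activates calcineurin and NFAT. Phosphatases, ubiquitin ligases, diacylglycerol kinases and inhibitory adaptors dampen each of these steps.

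All 40 genes had signals on both arrays, and 5 of them differed by 2-fold or more. The adaptor genes Trat1 and Themis were lower in CD103+ Th1, by 12.6-fold and 2.53-fold. The diacylglycerol kinase gene Dgka was 2.65-fold higher there, the protein kinase C-θ gene Prkcq 2.60-fold and the inhibitory adaptor gene Sit1 2.20-fold. The other 35 genes differed by less than 2-fold. With 3 of 40 at least 2-fold higher and 2 of 40 at least 2-fold lower, the shares were near those of all 11194 measured genes, of which 5.04% were higher and 4.87% lower, so the counts themselves say nothing about this gene set. All 40 genes had signals of at least 3 times the floor on both arrays. Among the 7892 genes that bright, 3.67% were higher and 3.28% lower by 2-fold.

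Smaller differences leaned towards CD103+ Th1. Log2 ratios, CD103+ Th1 over Th1, were above 0 for 27 of the 40 genes, against 47.4% of all measured genes. Their median was 0.20, with a middle range from -0.06 to 0.57, whereas the median of all measured genes was -0.03. At least 1.5-fold higher were 9 of the 40, against 12.4% of all measured genes, and at least 1.5-fold lower were 3, against 13.4%. The 6 genes added at this threshold on the higher side were Cd247, Cd6, Plcg1, Ubash3a, Cblb and Nfatc3, and the gene added on the lower side was Grap2. Shares at 1.5-fold among genes as bright as these 40 were not analysed here. Whether the lean exceeds that of other gene sets was not tested.

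**Figure D1:**
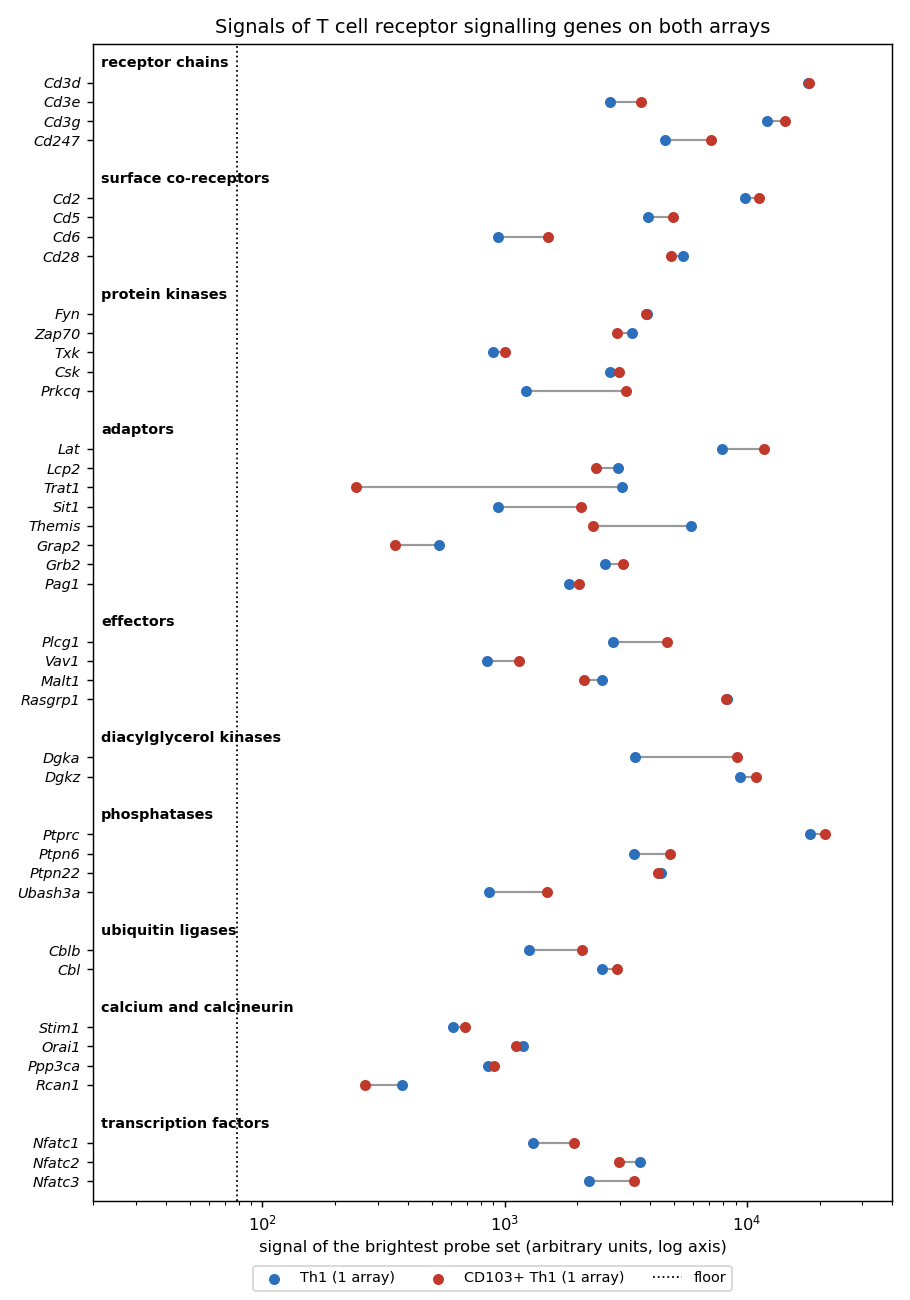
Signal of the brightest probe set of each gene in arbitrary units on a log axis, by role, with 1 point for the CD103+ Th1 array and 1 for the Th1 array and no error bars, since each condition had 1 array. The longest line is that of Trat1, from 244 to 3064; signals of different genes come from different probes and are not comparable with each other.

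The proximal promoters of the 5 genes at least 2-fold apart are shown because these are the members whose transcripts differed most between the cultures. Each is the 250 bases before a start site in RefSeq's annotation of GRCm38.p6, read 5′ to 3′ on the strand of the gene. The window of Trat1 is chr16:48772063-48772312 on the minus strand, that of Themis chr10:28668110-28668359 on the plus strand, that of Sit1 chr4:43483710-43483959 on the minus strand, that of Prkcq chr2:11172132-11172381 on the plus strand and that of Dgka chr10:128745085-128745334 on the minus strand. RefSeq gives 2 start sites for Themis and 4 for Dgka, and the window listed first was taken. Capitals mark matches to the motifs searched.
Trat1: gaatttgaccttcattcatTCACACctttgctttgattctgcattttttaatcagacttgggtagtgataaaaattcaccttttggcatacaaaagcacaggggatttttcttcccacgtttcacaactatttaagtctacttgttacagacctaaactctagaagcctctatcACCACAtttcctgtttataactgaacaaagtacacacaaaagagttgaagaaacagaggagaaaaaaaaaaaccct
Themis: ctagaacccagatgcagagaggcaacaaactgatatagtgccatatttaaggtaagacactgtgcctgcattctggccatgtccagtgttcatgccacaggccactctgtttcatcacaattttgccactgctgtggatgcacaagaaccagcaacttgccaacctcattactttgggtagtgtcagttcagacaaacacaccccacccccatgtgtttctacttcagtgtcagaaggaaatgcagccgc
Sit1: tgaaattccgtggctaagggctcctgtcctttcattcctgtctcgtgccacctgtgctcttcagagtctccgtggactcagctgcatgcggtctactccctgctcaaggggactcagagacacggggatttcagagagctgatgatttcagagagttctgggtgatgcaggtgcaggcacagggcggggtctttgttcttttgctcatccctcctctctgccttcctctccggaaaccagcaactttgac
Prkcq: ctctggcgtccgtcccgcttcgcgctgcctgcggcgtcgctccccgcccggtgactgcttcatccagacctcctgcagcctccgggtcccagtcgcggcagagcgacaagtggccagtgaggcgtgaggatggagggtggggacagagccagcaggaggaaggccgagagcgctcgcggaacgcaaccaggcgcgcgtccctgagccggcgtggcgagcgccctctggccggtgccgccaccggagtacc
Dgka: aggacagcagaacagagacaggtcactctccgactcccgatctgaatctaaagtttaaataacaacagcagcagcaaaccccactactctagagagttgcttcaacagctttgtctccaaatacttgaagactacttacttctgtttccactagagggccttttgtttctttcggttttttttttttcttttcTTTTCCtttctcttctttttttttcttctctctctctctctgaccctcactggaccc

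The motifs were those of some of the factors downstream of the receptor or of the cytokines in the media, searched on both strands. They were TTCNNNGAA, bound by several STAT factors, the SMAD element GTCTAGAC, and the cores GGAAAA of NFAT, TCACAC of T-box, TGTGGT of RUNX and AGATAA of GATA factors. Other spacings between TTC and GAA were not searched. Trat1 held 1 T-box core, which begins 231 bases before the start, and 1 RUNX core at 76 bases, read on the opposite strand. Dgka held 1 NFAT core at 57 bases, also on the opposite strand. Themis, Sit1 and Prkcq held no match to any of the 6 in this window. Among all 32851 windows of this length, 12.3% held the T-box core, 14.0% the RUNX core, 20.4% the NFAT core, 9.99% the GATA core, 7.02% TTCNNNGAA and 0.167% the SMAD element. Base composition also differed, with a G and C content of 35.2% in Trat1, 41.2% in Dgka, 48.0% in Themis, 54.8% in Sit1 and 72.4% in Prkcq, against a median of 52.4% over all windows. No searched motif was held by more than 1 of the 5 windows, and the matches within Trat1 did not overlap each other. Whether these 5 windows differ from others in their motifs was not tested.

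Receptor chain genes differed by less than 2-fold between both arrays. Cd3d, Cd3e and Cd3g encode the CD3 δ, ε and γ chains, which carry the tyrosine motifs with the ζ chain of Cd247. Cd3d gave 18038 in CD103+ Th1 and 17966 in Th1. Cd3g had 14377 and 12186, and Cd3e had 3652 and 2721, which is 1.34-fold higher in CD103+ Th1. Cd247 had 7142 and 4603, 1.55-fold higher, with log2 ratios over 3 measured probe sets of 0.54, 0.63 and 0.73. All 4 genes had ratios above 1 and none reached 2-fold, so the ζ chain gene was the furthest apart of the receptor chains and Cd3d the closest.

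Co-receptor genes of the surface also lay under 2-fold. CD2 is an adhesion receptor. CD5, which dampens signalling, and CD6 are scavenger receptor family proteins. CD28 is the main costimulatory receptor, against which both cultures received antibody. Cd2 read 11288 in CD103+ Th1 against 9859 in Th1, and Cd5 had 4953 and 3902. Cd6 had 1509 and 941, 1.60-fold higher on its 1 probe set. Cd28 was the one gene of this group with the lower signal in CD103+ Th1, 4855 against 5466, and its second probe set gave nearly the same log2 ratio, -0.16 against -0.17.

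Among protein kinase genes only Prkcq, of the 5 measured, was 2-fold apart. Prkcq encodes protein kinase C-θ, which links diacylglycerol to the NF-κB branch. Its 1 probe set gave 3182 in CD103+ Th1 and 1226 in Th1, a ratio that ranked 264 from the highest among the 11194 measured genes. The name of this probe set marks it as shared by several transcripts of the gene. Fyn, a SRC family kinase that phosphorylates the receptor chains together with LCK, had 3829 and 3871. Zap70, the kinase that docks on them, had 2913 and 3348, and over its 3 probe sets the log2 ratio lay between -0.20 and 0.16. Txk, a TEC family kinase, had 1003 and 895. Csk, which encodes the kinase that inactivates SRC family kinases, had 2969.5 and 2719. The 4 genes other than Prkcq thus differed by at most 1.15-fold.

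Adaptor genes were the largest group, with 8 genes, and had the widest spread, from -3.65 to 1.14 on the log2 scale. They held 3 of the 5 genes that were 2-fold apart, and the lower end of their spread was set by Trat1 alone. Trat1 encodes TRIM, a small transmembrane adaptor that associates with the receptor and ζ chains. Its brightest probe set had a signal of 244 in CD103+ Th1 and 3064 in Th1. The second had 189 and 1517, an 8.03-fold difference in the same direction. Both CD103+ Th1 signals lay above the floor, so neither fold is a bound. The Trat1 ratio ranked as the fourth lowest of all 11194 measured genes.

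Themis encodes a T cell adaptor that binds GRB2 and sets the strength of receptor signals during thymocyte selection. It had 4 probe sets, with signals of 2327, 1461, 539 and 399.7 in CD103+ Th1 and of 5875, 2989, 1290.3 and 812 in Th1, from the brightest to the dimmest. All 4 were lower in CD103+ Th1 by 2-fold or more, with folds of 2.53, 2.05, 2.39 and 2.03. Of the 40 genes only Rasgrp1 and Nfatc1 also had 4 or more measured probe sets, and theirs lay on both sides of 0. Sit1, which encodes a transmembrane adaptor that binds the phosphatase SHP-2 and inhibits receptor signals, went the other way, with 2076 in CD103+ Th1 and 942 in Th1 on its 1 probe set.

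The remaining adaptor genes lay at 1.51-fold or less. Lat, the central scaffold, gave 11818 in CD103+ Th1 and 7880.0 in Th1, a log2 ratio of 0.58, just under 1.5-fold. Lcp2, which encodes SLP-76, had 2394 and 2939, with a second probe set close to equal at 0.01 on the log2 scale. Grap2, which encodes GADS, the bridge between LAT and SLP-76, had 354 and 535, 1.51-fold lower, but its second, dimmer probe set had 152 and 138. Its direction therefore depends on the probe set. Grb2, the adaptor that brings the RAS exchange factor SOS, had 3096 and 2589.6, with both probe sets above 0. Pag1, which encodes an adaptor that holds CSK at the membrane, had 2033 and 1844, with probe sets from -0.37 to 0.14.

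**Figure D2:**
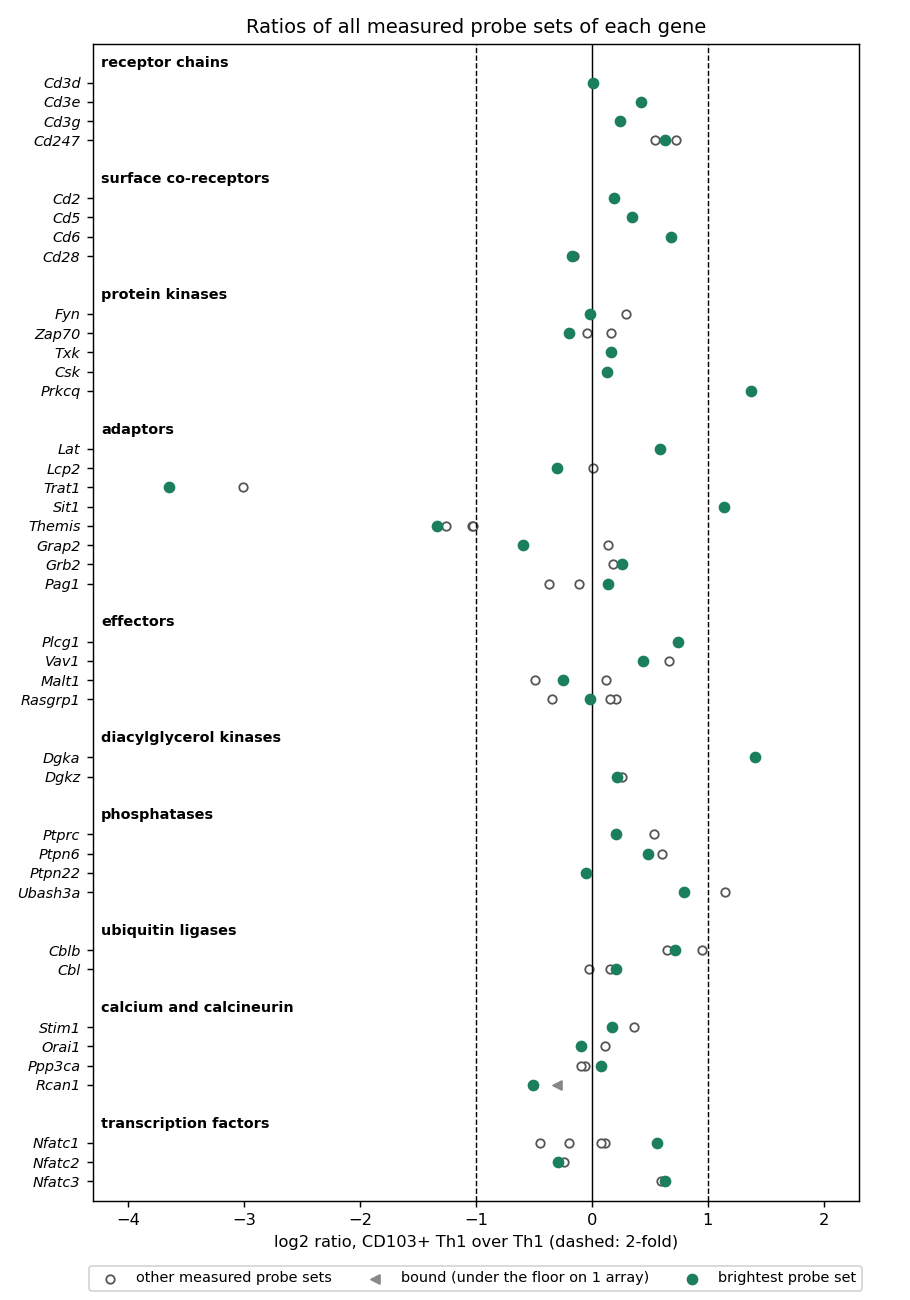
Log2 ratio of CD103+ Th1 over Th1 for the measured probe sets of each gene, by role, with the brightest probe set filled, the others open and dashed lines at 2-fold. Trat1 and Themis lie beyond the line on the lower side with all their probe sets, Dgka, Prkcq and Sit1 beyond it on the higher side with 1 probe set each, and the probe sets of Nfatc1 lie on both sides of 0.

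Effector genes next to the scaffold did not reach 2-fold. Plcg1, which encodes phospholipase C-γ1, gave a signal of 4707 in CD103+ Th1 and one of 2811 in Th1, 1.67-fold higher, and its other probe sets lay under the floor on both arrays. Vav1, an exchange factor for RAC that acts on the cytoskeleton, had 1149 and 848, and its second probe set was further apart, at 0.66 against 0.44 on the log2 scale. Rasgrp1, the exchange factor that activates RAS on diacylglycerol, had 8212 and 8302. Malt1, the protease and scaffold of the NF-κB branch, had 2119 and 2525, with its 3 probe sets from -0.49 to 0.12. Only the phospholipase gene of these 4 was more than 1.5-fold apart on its brightest probe set.

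Of the enzymes that remove diacylglycerol, Dgka was 2-fold apart and Dgkz was not. Dgka and Dgkz encode diacylglycerol kinases α and ζ, which convert diacylglycerol to phosphatidic acid and so limit RASGRP1 and protein kinase C-θ. Dgka gave 9137 in CD103+ Th1 and 3450.5 in Th1 on its 1 probe set, a ratio that ranked 253 from the highest. Dgkz had 10970.0 and 9421, 1.16-fold higher, and a second probe set at 0.26 on the log2 scale. The difference of Dgkz was smaller than the typical range between probe sets of 1 gene, whose median over the genes with at least 2 measured probe sets was 0.37 on the log2 scale.

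Phosphatase genes ranged from -0.05 to 0.80 on the log2 scale. Ptprc encodes CD45, which keeps LCK ready by removing its inhibitory phosphate, and gave 21074 in CD103+ Th1 and 18243 in Th1. Ptpn6, for the inhibitory phosphatase SHP-1, had 4800.1 and 3438, with both probe sets higher, at 0.48 and 0.60. Ptpn22, which encodes a phosphatase that dephosphorylates LCK and ZAP-70, had 4294 and 4446. Ubash3a, which encodes STS-2, a suppressor of receptor signalling related to phosphatases, had 1495 and 861, 1.74-fold higher, and its second probe set had 671 and 303. That second probe set was 2.22-fold apart, so Ubash3a lay on either side of the 2-fold line depending on the probe set.

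The ubiquitin ligase genes had ratios above 1. CBL and CBL-B tag activated receptor components and kinases for removal, and CBL-B sets the need for CD28 costimulation. Cblb read 2079.7 in CD103+ Th1 against 1264 in Th1, 1.65-fold higher, and over its 3 probe sets the log2 ratio lay between 0.65 and 0.95. Cbl had 2907 and 2517, with 3 probe sets from -0.03 to 0.21. Every measured probe set of Cblb was thus higher in CD103+ Th1, whereas those of Cbl lay on both sides of 0.

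Genes of calcium entry and calcineurin were the closest to equal, with a median log2 ratio of -0.01. STIM1 senses calcium in the endoplasmic reticulum and opens the channel protein ORAI1. Stim1 gave a signal of 689 in CD103+ Th1 and one of 609.9 in Th1, and Orai1 had 1116 and 1194. Ppp3ca, for a catalytic subunit of calcineurin, had 901 and 852, with 3 probe sets from -0.10 to 0.08. Rcan1, which encodes a calcineurin inhibitor and is a known NFAT target, had 266 and 378, 1.42-fold lower. Its second probe set lay under the floor in CD103+ Th1, at 54.2 against 96.6.

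The genes of the NFAT transcription factors, which enter the nucleus once calcineurin has dephosphorylated them, had ratios on both sides of 1. Nfatc3 gave 3435 in CD103+ Th1 and 2224 in Th1, 1.54-fold higher, with a second probe set at 0.60 on the log2 scale against 0.63. Nfatc2, the abundant form of resting T cells, had 2967 and 3633, and 4 of its 6 probe sets lay under the floor. Nfatc1, whose short form is induced on activation, had 1929.6 and 1308 on its brightest probe set, but its second had 1410.3 and 1614. Its 5 probe sets ranged from -0.44 to 0.56, the widest range of the 40 genes, so no direction can be given for Nfatc1.

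Probe sets of 1 gene on the same pair of arrays give a rough scale for these ratios, though not a replicate error. Of the 26 genes with at least 2 measured probe sets, 15 had all of them in one direction and 11 had them in both. The range between the lowest and the highest log2 ratio had a median of 0.27 in these genes and of 0.37 over the 5238 genes with at least 2 measured probe sets. In 9.41% of the latter the range was 1 or more. The other 14 of the 40 genes had 1 measured probe set, among them Dgka, Prkcq and Sit1, so that the 3 higher genes have no second probe set to set beside the first. Trat1 and Themis do.

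Across roles, members that dampen signalling were compared with the rest, in a grouping made after the values were seen. These were Cd5, Sit1, Csk, Pag1, Dgka, Dgkz, Ptpn6, Ptpn22, Ubash3a, Cblb, Cbl and Rcan1. Ratios were above 1 for 10 of these 12, all but Ptpn22 and Rcan1, with a median log2 ratio of 0.28, and for 17 of the other 28 genes, with a median of 0.17, against 47.4% of all measured genes. Pag1 counts among the 10 by its brightest probe set only, since the mean of its probe sets was -0.11. At least 2-fold higher were 2 of the 12 and 1 of the 28, and at least 2-fold lower were 0 of the 12 and 2 of the 28, against 5.04% and 4.87% of all measured genes. The gap between both medians is smaller than the median range of 0.27 between probe sets of 1 gene. That range does not measure the spread of a group median, and the gap was not tested. Both medians depend on how genes were assigned, and Cd6, with a log2 ratio of 0.68, was counted among the 28.

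**Figure D3:**
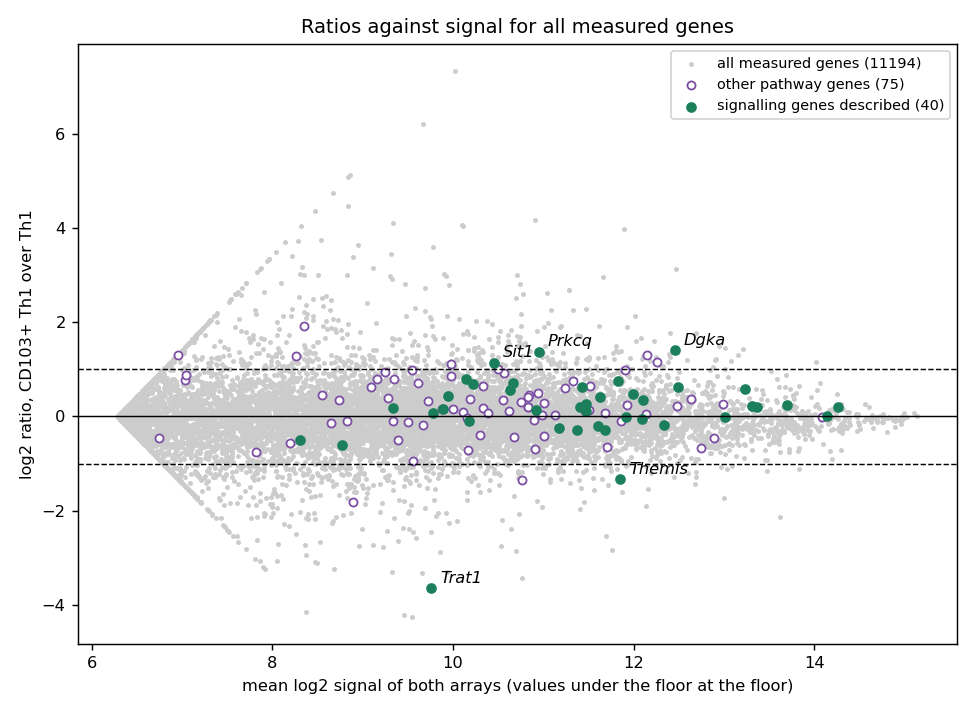
Log2 ratio of CD103+ Th1 over Th1 against the mean log2 signal of both arrays for all 11194 measured genes, with the 40 signalling genes filled, 75 other pathway genes open and dashed lines at 2-fold. The spread of all genes narrows towards high signals, and the 5 signalling genes beyond 2-fold are named, with Trat1 at the lower edge of the cloud.

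Of 90 other genes listed for the same pathway, 75 had a named probe set and all of these were measured, and 15 were not analysed here. At least 2-fold higher were 7 of the 75, against 5.04% of all measured genes, and at least 2-fold lower 2, against 4.87%. Ratios were above 1 for 51 of the 75, against 47.4%, with a median log2 ratio of 0.21. Lax1, which encodes a transmembrane adaptor that inhibits receptor signalling, read 635 in CD103+ Th1 against 168 in Th1, 3.77-fold higher. Rhoh, which encodes a haematopoietic GTPase that helps recruit ZAP-70, had 7128 and 2876. Ctla4, the inhibitory counterpart of CD28, had 7303 and 3289. These 3 and Ptprj, Nfat5, Tnfaip3 and Akap5 made up the higher genes, with folds of 2.44, 2.18, 2.02 and at least 2.49 for the latter 4. Ptprj encodes the receptor phosphatase CD148 and Tnfaip3 the NF-κB inhibitor A20, and their second probe sets were both under 1.5-fold. Ksr1, a scaffold of the RAS and MAP kinase branch, was 3.51-fold lower with 254 and 889.9, and over its 3 probe sets the log2 ratio lay between -2.12 and -0.70. Sh2d1a, which encodes SAP, the adaptor of SLAM receptors that recruits FYN, was 2.56-fold lower with 1087 and 2784. With the floor at the 75th percentile of the signals, 4 of these genes were higher and 1 lower, of 66 measured. The shares among all 7169 genes measured at that floor were not analysed here.

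Of 7 CD4 T cell markers, 3 were measured and the other 4 were not analysed here. Cd4 had 1081 in CD103+ Th1 and 973 in Th1, Thy1 had 21851 and 20353, and Bcl11b had 7999 and 4185, 1.91-fold higher. The 3 summed to 30931 and 25510.3, mostly through Thy1. CD8 T cells use the same receptor machinery, and both of their markers passed 2-fold towards the CD103+ Th1 array on the brightest probe set. Cd8a had 2054 and 466, with log2 ratios between 0.24 and 2.16 over 5 probe sets, and Cd8b1 had 1593 and 697, with sums of 3647 and 1163. Of the NK cell markers, Klrk1 had 3293 and 2163 and both other named genes lay under the floor, as did the 1 named γδ T cell marker. Of the B cell markers, Cd79b had 244.0 and 75.8, the latter under the floor, and the other 4 named genes lay under it on both arrays. Of 7 myeloid markers, 4 lay under the floor on both arrays. The other 3 had 118 and 187 for Csf1r, 104 and 233 for Cd68, and 57.0 and 79.1 for Adgre1, which lay under the floor in CD103+ Th1 and barely above it in Th1. Their sums were 279 and 499. Such sums add signals of different probe sets and only serve to set both arrays side by side. The part of other cell types in the ratios above was not tested. The arrays themselves had medians of 78.0 and 78.8 and trimmed means of 498 on both.

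**Figure D4:**
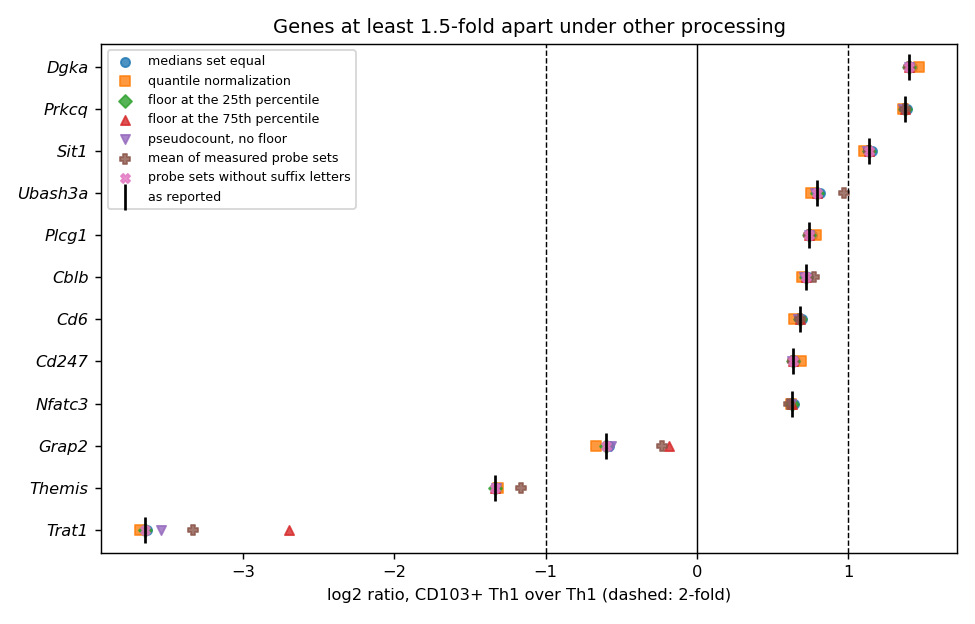
Log2 ratio of CD103+ Th1 over Th1 for the 12 genes at least 1.5-fold apart, as reported (black bar) and under 7 other ways of processing (symbols), with dashed lines at 2-fold. Dgka, Prkcq, Sit1, Themis and Trat1 stay beyond 2-fold wherever they were measured, and Ubash3a comes closest to the line from inside, at 0.97 with the mean of its probe sets. Dgka, Prkcq and Sit1 have 1 bright probe set each, so a changed floor or the mean of probe sets could not move them.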

How the data were processed

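The authors deposited linear signal intensities, 1 for each array and probe set (several short probes that target 1 transcript). Per the submitters' processing notes they come from GCOS. Its version, scaling and filters are not given in the sources used here. No further scaling was applied. Signals under the median over both arrays, 78.5, were raised to that floor. Where both arrays lay under it no ratio was formed, and where 1 did the ratio is a bound.

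Probe sets with exactly 1 gene symbol (34945 of 45037) were named through the platform annotation, with symbols updated by gene identifier to RefSeq's GRCm38.p6 table (34741 matched). Each gene is represented by its measured probe set with the largest mean of log2 signals. Folds are signal ratios, and log2 ratios are CD103+ Th1 over Th1. Levels of different probe sets were not compared. Arrays lack counts, and their number, 1 per group, limits the precision.

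All 41 genes are accounted for. Of the other pathway genes, those at least 2-fold apart are named. The genes, their roles, the pathway and marker lists and the alternatives were chosen with earlier results of these data known. The steps were tested on simulated data in which the planted differences all lay beyond 2-fold, in bright genes. Recovery of differences close to 2-fold was not tested. Python 3.11.15 and pandas 2.3.3 were used.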

Additional observations from a re-analysis of the deposited data

How the results depend on the processing

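The ratios were recomputed with both medians set equal, with quantile normalization, with the floor at the 25th or 75th percentile (21.2 or 472), with a pseudocount of 21.2 in place of the floor, with the mean over a gene's measured probe sets, without probe sets that carry suffix letters, and at thresholds of 1.5-fold and 4-fold. The same 5 genes were 2-fold apart under all 7 of the processing alternatives, except that Prkcq has no probe set without a suffix letter. Several of these alternatives could not alter the ratios of Dgka, Prkcq and Sit1, which have 1 probe set each and signals above 472 on both arrays. For them both floors and the mean of probe sets return the same ratio, as does leaving out suffix letters for Dgka and Sit1. The median log2 ratio of the 40 genes stayed between 0.18 and 0.24, and that of the other pathway genes between 0.19 and 0.23. These medians cover the genes measured in each setting. Without suffix letters these were 34 of the 40 genes and 70 other pathway genes, and with the floor at the 75th percentile 39 and 66. With the floor at the 75th percentile, 4 of the other pathway genes were higher and 1 lower, of 66 measured, and the shares of all genes at that floor were not analysed here. At 1.5-fold the counts were 9 higher and 3 lower among the 40 genes, and 22 higher and 8 lower among the 75 other pathway genes. Of all 11194 measured genes, 12.4% were higher and 13.4% lower at that threshold. At 4-fold the counts were 0 higher and 1 lower among the 40 genes, and 0 higher and 0 lower among the other pathway genes. Of all 11194 measured genes, 108 were higher and 86 lower by 4-fold. The Trat1 log2 ratio was -2.70 with the floor at the 75th percentile, which lies above its CD103+ Th1 signal. Pag1 had -0.11 with the mean of probe sets, and Nfatc1 0.02. Fyn, Rasgrp1, Orai1 and Ppp3ca, all within 1.1-fold, also changed sign under at least 1 alternative. No library could be left out, since each group has 1 array. No paired analysis was possible because each group has 1 array and the labels carry no replicate numbers.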

Other observations

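The nearest protein-coding neighbours of the 5 genes that were 2-fold apart, in the order of RefSeq's GRCm38.p6 gene table, were read after the values of the 5 were known. Themis lies next to Ptprk, which encodes a receptor tyrosine phosphatase, and Ptprk was lower in CD103+ Th1 as well, with a signal of 64.5, under the floor, against 555 in Th1, at least 7.07-fold. On the other side of Themis, the next gene and the one after it lay under the floor. Trat1 lies next to Morc1, with 52.0, under the floor, against 182, at least 2.32-fold lower, and to Retnlb, under the floor on both arrays. Sit1 lies between Cd72, a receptor gene known from B cells, with 685 and 215, 3.18-fold higher, and Ccdc107, with 1060.3 and 768. Prkcq lies between Sfmbt2 and Pfkfb3, with log2 ratios of 0.66 and -0.12, and Dgka between Cdk2, at -0.08, and Pym1, which lay under the floor on both arrays. For Themis, Trat1 and Sit1 1 neighbour was thus at least 2-fold apart in the same direction, and for Prkcq and Dgka none was. Of all 11194 measured genes, 5.04% passed 2-fold towards CD103+ Th1 and 4.87% towards Th1. A member under 2-fold could also have such neighbours. Cd28, with a log2 ratio of -0.17, lies directly between Raph1 at -1.25 and Ctla4 at 1.15. The genes directly beside Cd3d and Cd5 lay under 2-fold. Whether the direction shared at Themis, Trat1 and Sit1 exceeds that of other neighbouring genes was not tested.

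Members that are neighbours themselves differed in size. Cd3g, Cd3d and Cd3e lie next to each other in that order with log2 ratios of 0.24, 0.01 and 0.42, and Cd5 and Cd6 lie side by side with 0.34 and 0.68. Cd28 is followed by Ctla4 and Icos, which encode related receptors, with -0.17, 1.15 and -0.68, so that the 3 genes of this cluster had ratios on both sides of 1.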
